A study of Homo sapiens with 2 samples.

Results

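The transcription factor NRF2, encoded by NFE2L2, and 9 of its antioxidant target genes were examined for S9.6 signal in A549 cells, a human lung cancer line. The genes were NFE2L2, NQO1, HMOX1, GCLC, GCLM, TXNRD1, SRXN1, SLC7A11, FTL and FTH1, 10 of 19974 protein-coding genes on chromosomes 1 to 22 and X. They were listed by name, and every peak from 1000 bp before to 1000 bp after each gene span was taken. The series holds 2 CUT&Tag libraries of wild-type A549 cells, with no treatment named in the labels. For the first, S9.6, an antibody to RNA-DNA hybrids, was used, and for the second a control IgG. The S9.6 library is described, and IgG was not analysed here. Whether IgG served as the control in peak calling is not stated, so the listed peaks cannot be taken to exceed it. No signal after RNase H, which digests the RNA of hybrids, was set beside the S9.6 signal, so whether that signal depends on hybrids was not tested. CUT&Tag ties a transposase to the antibody, so that DNA near the bound antibody is cut and sequenced. With 1 library there is no replicate, so differences between genes or conditions have no test, and every share below describes this peak list. The signal is an average over many cells, so fewer cells with a hybrid and fewer hybrids per cell cannot be told apart.

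An R-loop forms when nascent RNA pairs with the DNA template behind RNA polymerase and displaces the other strand. R-loops are known to gather at the promoters and ends of active genes. NRF2 is held low by KEAP1, an adaptor that presents it to the CUL3 ubiquitin ligase. When it escapes, NRF2 binds antioxidant response elements together with a small MAF protein and turns on genes for glutathione, thioredoxin, NADPH and iron storage. A549 cells are known for a KEAP1 mutation and high NRF2 activity.

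The peak list held 47810 peaks, 45756 of them on chromosomes 1 to 22 and X, with a median width of 685.5 bp. Each peak has a total signal and a maximum coverage, taken to be the largest number of fragments stacked over 1 position. Both are whole numbers. Their meaning was read from the values and from the layout of SEACR, a peak caller among the named tools. Coverage was shallow, with a median maximum of 2, and the number of reads is unknown. A gene with no listed peak may still have signal under the calling threshold, for which the labels give no value. Among marker genes, KRT8, KRT18, KRT19 and CDH1 of epithelium had a peak over the span or flanks and EPCAM had none, while the leukocyte genes PTPRC and CD3E and the hepatocyte gene ALB had none. Of the other markers outside epithelium, COL1A1 of fibroblasts had 4 peaks and PECAM1 of endothelium 1. The lung epithelial genes NKX2-1, SFTPC, SFTPB, SCGB1A1 and MUC1 each had a peak over the span or flanks. So had 60.4% of all protein-coding genes. A peak list gives no expression level, so this is no check of the cell type.

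Sequences upstream of 4 start sites show what lay under, or beside, the peaks described next. They are the 250 bases before the start, from RefSeq on GRCh38.p14, written 5′ to 3′ on the gene's own strand. Promoter entries were found for 7 of the 10 genes, all but HMOX1, SLC7A11 and FTH1. In NQO1 (chr16:69726561-69726810, minus strand) and SRXN1 (chr20:653201-653450, minus strand), capitals mark bases inside the stretch of maximum coverage of the gene's highest peak. In GCLM (chr1:93909431-93909680, minus strand) and at the second start of TXNRD1 (chr12:104286782-104287031, plus strand), capitals mark a match to the antioxidant response element core.
NQO1: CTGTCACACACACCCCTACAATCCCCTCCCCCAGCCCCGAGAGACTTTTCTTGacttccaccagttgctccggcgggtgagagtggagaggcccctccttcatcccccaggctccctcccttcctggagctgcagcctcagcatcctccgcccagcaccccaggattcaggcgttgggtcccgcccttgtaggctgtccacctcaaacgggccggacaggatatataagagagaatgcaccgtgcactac
SRXN1: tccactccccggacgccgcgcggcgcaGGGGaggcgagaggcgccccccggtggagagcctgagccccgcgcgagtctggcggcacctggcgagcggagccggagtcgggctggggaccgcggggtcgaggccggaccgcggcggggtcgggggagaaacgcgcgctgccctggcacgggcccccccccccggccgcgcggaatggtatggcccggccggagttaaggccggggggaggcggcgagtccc
GCLM: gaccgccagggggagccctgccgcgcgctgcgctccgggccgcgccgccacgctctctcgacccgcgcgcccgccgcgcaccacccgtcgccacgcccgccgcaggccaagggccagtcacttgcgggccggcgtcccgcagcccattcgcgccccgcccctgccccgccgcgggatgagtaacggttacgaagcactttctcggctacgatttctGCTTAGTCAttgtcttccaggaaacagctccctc
TXNRD1: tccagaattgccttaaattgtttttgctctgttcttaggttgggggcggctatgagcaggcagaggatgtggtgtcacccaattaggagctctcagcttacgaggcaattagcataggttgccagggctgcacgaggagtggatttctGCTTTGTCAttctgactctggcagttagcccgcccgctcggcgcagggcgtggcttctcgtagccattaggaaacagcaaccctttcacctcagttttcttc

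Peaks were listed over 9 of the 10 genes, GCLM being the exception, against 60.4% of all protein-coding genes. At a gene boundary, meaning within 1000 bp of either end of the span, 7 of the 10 had a peak, against 40.1% of protein-coding genes. A boundary peak with a maximum coverage of 5 or more was present at 5 of them (NQO1, SRXN1, FTL, GCLC and FTH1), against 14.5%. The share over spans rises with gene length, from 43.1% under 10 kb to 79.2% at 100 kb or more, as a longer span has more room. The 3 genes under 10 kb (SRXN1, FTL and FTH1) all had a boundary peak, where 38.4% of 5658 genes of that length did. Of the 3 genes from 10 to 30 kb, 2 had a boundary peak, as had 2 of the 3 from 30 to 100 kb, against 43.9% and 42.1%. TXNRD1, the only member over 100 kb, had none, against 33.2% of 3351 genes.

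The 9 genes carried 44 peaks in all, 23 of them over TXNRD1. Their widths ran from 396 to 1900 bp (median 762.5), their total signals from 804 to 4914 (median 1276) and their maxima from 2 to 9 (median 3). A maximum of 5 or more was reached by 10 of the 44 (22.7%), against 9.54% of all peaks on chromosomes 1 to 22 and X. At boundaries there were 15 peaks with a median maximum of 4. Away from boundaries there were 29, with a median of 3, or of 2 over the 6 that lay outside TXNRD1. This split depends on gene length. At FTL, of 1571 bp, the boundary windows cover the whole span and flanks, so its 3 peaks could not count as inside. At FTH1, of 3350 bp, the windows cover most of the span, and all 4 of its peaks counted at a boundary. Of the 15 boundary peaks, 5 lay wholly outside the gene span and 7 also touched a boundary window of another gene, so the gene to which their signal belongs cannot be told apart.

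**Figure D1:**
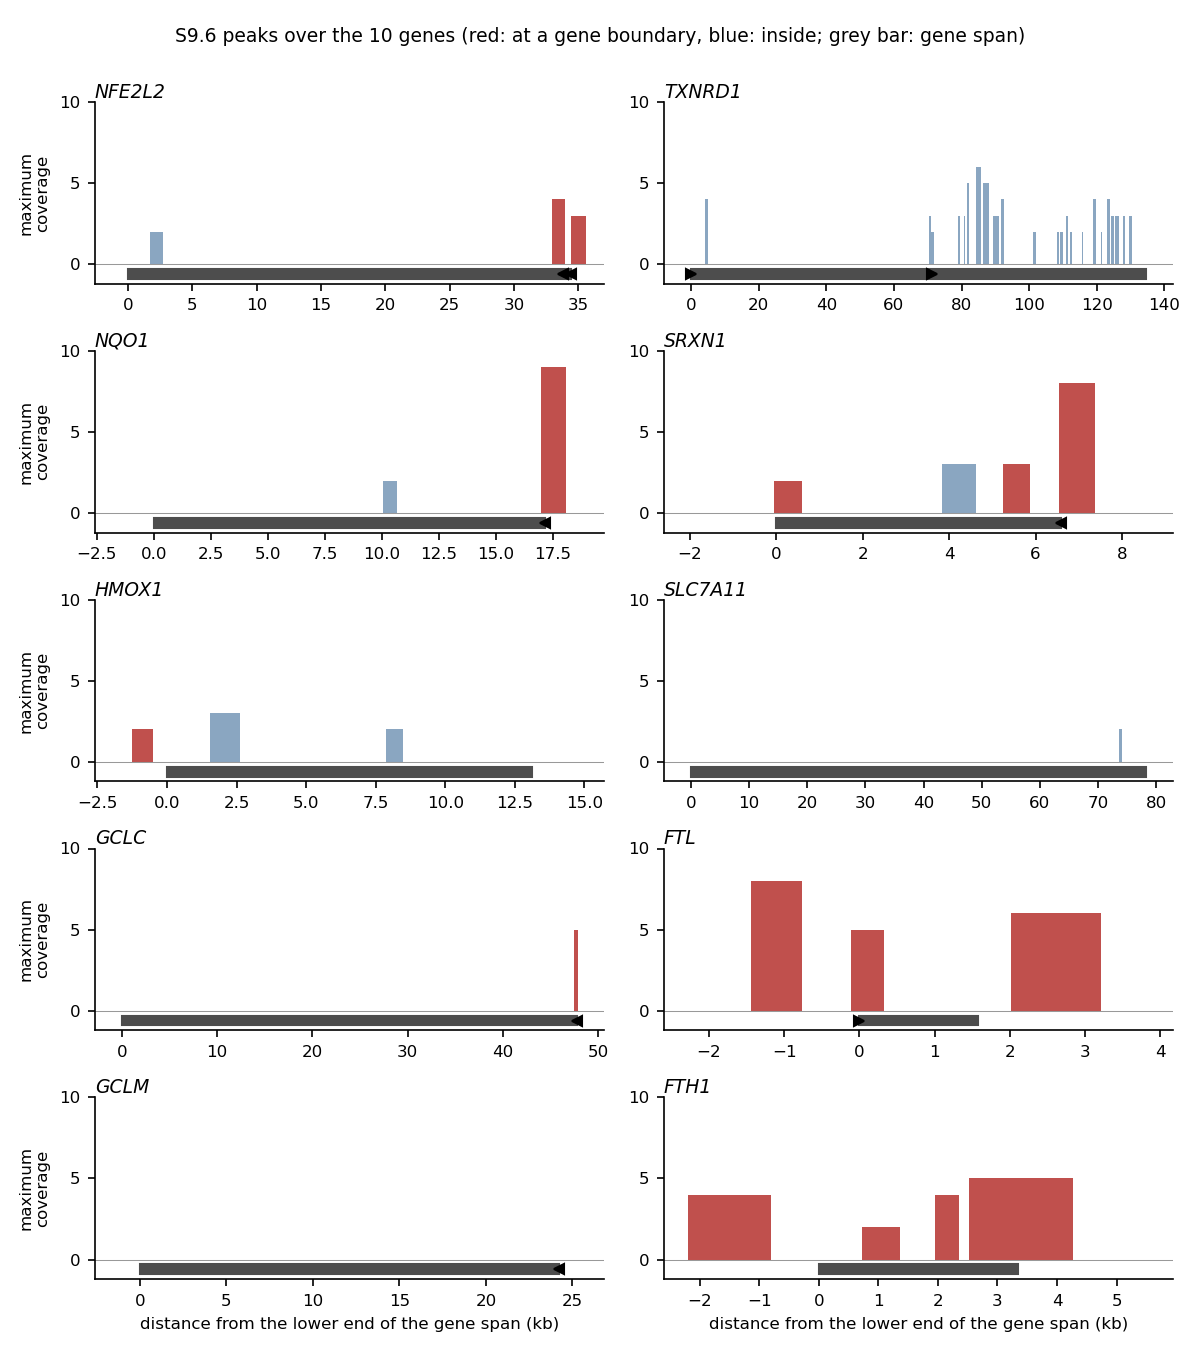
Peaks over the 10 genes, 1 panel per gene; the x axis is the distance from the lower end of the span in kb and the y axis the maximum coverage in fragments. Each block has the width of its peak, red at a boundary and blue inside, and arrowheads mark the listed starts where given. NQO1 reaches 9 at its start, TXNRD1 carries 23 peaks and GCLM has none.

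By highest peak, the order was NQO1 (maximum coverage 9), SRXN1 and FTL (8 each), TXNRD1 (6), GCLC and FTH1 (5 each), NFE2L2 (4), HMOX1 (3) and SLC7A11 (2). Counting error alone makes this order loose. The exact Poisson 95% interval was 4.12 to 17.1 for NQO1 and 0.24 to 7.2 for SLC7A11, so no interval in the series of 9 was clear of any other. These intervals cover counting error only and take the maximum as an unscaled count of fragments. They do not allow for duplicate fragments or for the choice of the highest position. Among the 7 genes with a boundary peak, the median of the highest one was 5, against 4 over the 8001 protein-coding genes with one.

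**Figure D2:**
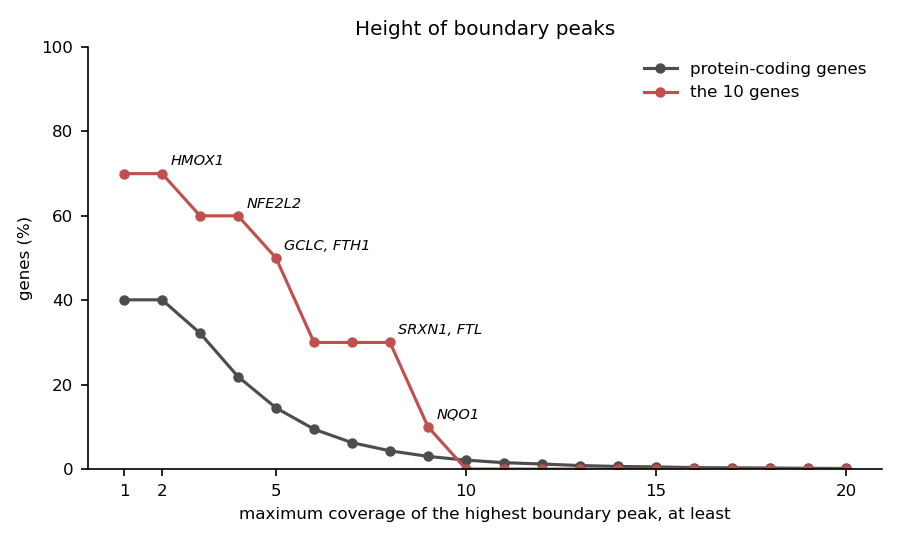
Share of genes (y axis, %) whose highest boundary peak has at least the maximum coverage on the x axis, for the 10 genes (red) and for all protein-coding genes (grey). The red points lie above the grey ones up to a maximum of 9, where NQO1 remains.

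Starts could be told from ends for the 7 genes with a promoter entry. Of these, 6 had a peak within 1000 bp of a listed start, GCLM being the exception, against 38.4% of 15812 protein-coding genes with an entry. At the opposite end of the span, 2 of the 7 (SRXN1 and FTL) had a peak, against 11.4%. More members thus had a peak at a start than at the opposite end, as did more of the genes at large. All listed starts of a gene were counted but only a single end, so starts had more room where several were listed.

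NFE2L2, which encodes NRF2 itself, spans chr2:177230303-177264727 on the minus strand and had 3 peaks. The highest, at 177263246 to 177264288, was 1043 bp wide with a maximum of 4 and a total of 2308, and the middle of its maximum region lay 424 bp downstream of the inner of 2 listed starts. A second, at 177264740 to 177265921, lay wholly upstream of the outer start, with its middle 583 bp away, a maximum of 3 and a total of 1750. The first peak covered the inner start, and neither covered the outer one. The third peak, at the far end of the gene, reached 2 (total 1096), and no other peak within 500 kb was as high as the 4 at the start.

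NQO1, a quinone reductase that is a standard readout of NRF2 activity, spans chr16:69709401-69726560. Its start peak, at 69726393 to 69727505, was 1113 bp wide, with a maximum of 9 and a total of 4914, the largest total among the 44 peaks. Of all peaks on chromosomes 1 to 22 and X, 1.89% reached this maximum and 1.38% this total. No other peak within 500 kb was as high, among 30 listed there. The stretch of maximum coverage was 183 bp long and lay 198 to 380 bp upstream of the start, so it began inside the NQO1 sequence printed above. In total 945 bp of the peak lay outside the gene, where the divergent transcript NQO1-DT has its boundary, and the 2 transcripts' shares of the signal cannot be told apart. The remaining NQO1 peak, inside the gene, had a maximum of 2 and a total of 1004.

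HMOX1 encodes haem oxygenase, which breaks haem down to biliverdin, iron and carbon monoxide. It spans chr22:35381096-35394207 and had 3 low peaks. The boundary peak, at 35379828 to 35380603, lay wholly outside the span, ending 493 bp before its lower end, with a maximum of 2 and a total of 1065. Inside, peaks at 35382626 to 35383705 and 35388983 to 35389586 reached 3 (total 1913) and 2 (total 924). Within 500 kb of the gene 53 peaks were listed and 8 were higher than any of its own, unlike at NQO1.

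Of the members that serve glutathione synthesis, GCLC and SLC7A11 had a listed peak each, and GCLM had none within 1000 bp of its span. GCLC, the catalytic subunit of the enzyme that limits glutathione synthesis, spans chr6:53497341-53545101 on the minus strand and had 1 compact peak at its start. That peak, at 53544759 to 53545218, was 460 bp wide with a maximum of 5 and a total of 1308, and the middle of its maximum region lay 141 bp inside the gene. Only 6 peaks were listed within 500 kb, and 1 other was as high.

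GCLM, the modifier subunit of the same enzyme, spans chr1:93885199-93909430 and had no peak over the span or flanks. The nearest, at 93910798 to 93911780, began 1368 bp beyond the start, outside the window, with a maximum of 2 and a total of 1034. SLC7A11, the cystine carrier that feeds glutathione synthesis, spans chr4:138164097-138242349 and had a single peak inside it. At 138237777 to 138238279, it was 503 bp wide with a maximum of 2 and a total of 845. Its neighbourhood was the sparsest of the 10, with 3 peaks within 500 kb or 0.278 per 100 kb. Whether this bears on the gene's own count was not tested.

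TXNRD1, the cytosolic thioredoxin reductase, stood apart by number rather than height. Its span was the longest among the members. Per 100 kb of span and flanks it had 16.8 peaks, fewer than FTL (84.0), FTH1 (74.8), SRXN1 (46.6) and HMOX1 (19.9). Over the TXNRD1 span, chr12:104215779-104350307 on the plus strand, 23 peaks were listed, covering 19661 bp. Maxima were 2 in 7 of them, 3 in 9, 4 in 4 and 5 or 6 in 3. The highest, at 104300176 to 104301475, was 1300 bp wide with a maximum of 6 (95% interval 2.2 to 13.1) and a total of 4515, and its middle lay 13655 bp downstream of the second start. Peaks at 104297411 to 104297893 and 104302251 to 104303738, on either side of it, reached 5 each, with totals of 1647 and 3513.

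These peaks were not spread evenly along the gene. RefSeq promoter entries gave 2 starts, 71.3 kb apart, and 22 of the 23 peaks lay from 1000 bp upstream of the second start onward. That is 33.7 peaks per 100 kb there, against 1.4 per 100 kb in the stretch before it. Gaps between neighbouring peaks of the second stretch ran from 207 to 8364 bp (median 1211), and peaks covered 29.0% of its length. The single early peak, at 104219929 to 104220677, had a maximum of 4 and lay 4420 bp downstream of the first start, which had no peak within 1000 bp. At the second start, a peak at 104286046 to 104286620 (maximum 3, total 1160) lay upstream. Another, at 104286870 to 104287728 (maximum 2, total 1026), covered the start.

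In the 100 kb before TXNRD1 there were 2 peaks and in the 100 kb after it 4. With 16.8 peaks per 100 kb of span and flanks, TXNRD1 ranked 12 among 3351 protein-coding genes of 100 kb or more, whose median was 0.841. By number of peaks, 39 of those genes had at least as many, TXNRD1 included. EID3, a short gene within the TXNRD1 span, has a boundary window touched by 2 of the 23 peaks. A peak of 2 or 3 stacked fragments is close to the lowest the list holds, and 3 of the 23 remained with a maximum of 5 or more.

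**Figure D3:**
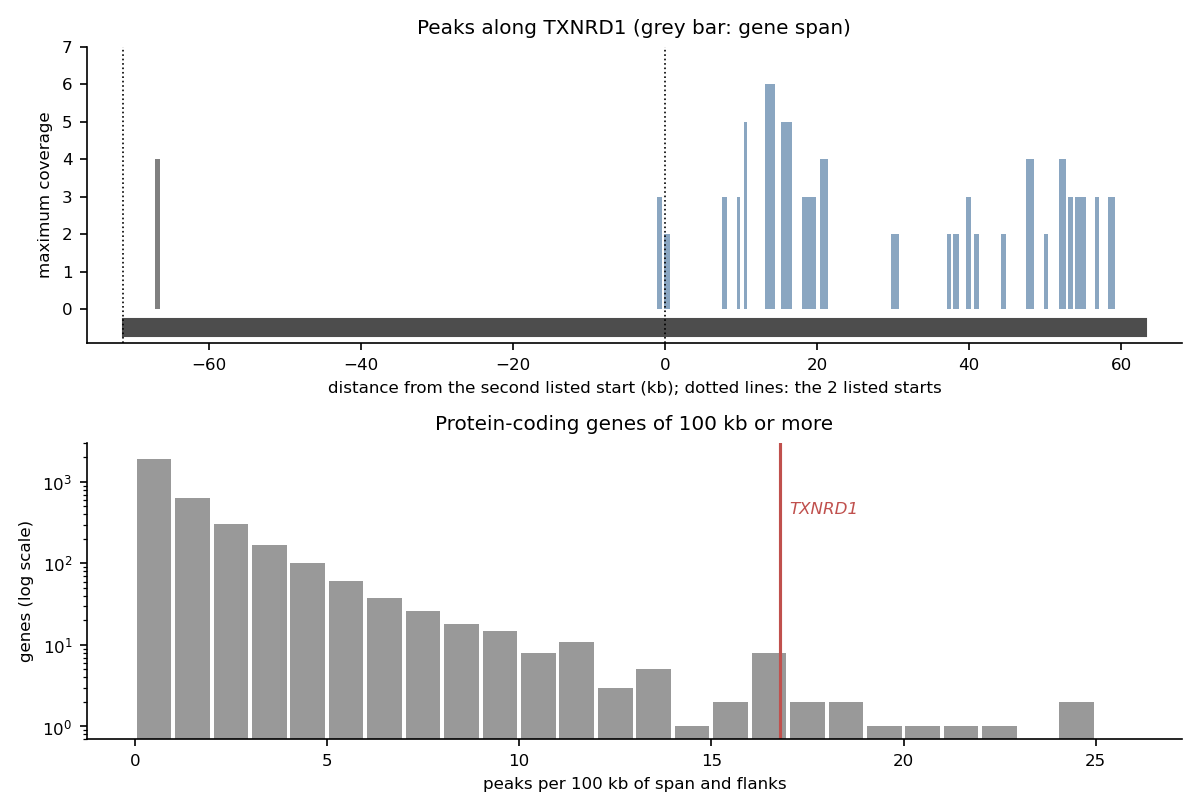
Top, peaks along TXNRD1, with distance from its second listed start in kb on the x axis and maximum coverage on the y axis; dotted lines mark both starts. Bottom, number of protein-coding genes of 100 kb or more (log axis) by peaks per 100 kb, with TXNRD1 at 16.8; 22 of its 23 peaks lie from 1000 bp upstream of the second start onward.

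SRXN1, sulfiredoxin, reactivates over-oxidised peroxiredoxins. It spans chr20:646615-653200 on the minus strand and had 4 peaks within 6586 bp of gene and its flanks. The start peak, at 653151 to 653997, was 847 bp wide with a maximum of 8 (95% interval 3.45 to 15.8) but a total of only 1553. Its mean coverage was 1.83, against 4.42 at NQO1, whose maximum was 9. The maximum was held over 4 bp alone, 220 to 223 bp upstream of the start, the GGGG in capitals in the sequence above, whereas that of NQO1 was held over 183 bp. Other SRXN1 peaks had maxima of 3 (totals 1049 and 804) and, at the 3′ end, 2 (total 1096). An uncharacterised lncRNA, LOC107985423, shares the start peak and the next one inside the gene. Around SRXN1, 70 peaks were listed within 500 kb (6.95 per 100 kb), 1 of them higher than any of its own.

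FTL and FTH1 encode the light and heavy chains of ferritin, the iron store of the cell. FTL spans chr19:48965309-48966879 on the plus strand and had 3 peaks around its 1571 bp. The highest, at 48963870 to 48964545, had a maximum of 8 and a total of 2261 and lay wholly upstream, with its middle 1217 bp from the start. A narrower one, at 48965201 to 48965634, covered the start, with a maximum of 5 and a total of 1308. Past the end, a peak at 48967318 to 48968517 had a maximum of 6 and a total of 3493 and also touched a boundary of GYS1, the muscle glycogen synthase gene. The region was the densest around any of the 10 genes, with 114 peaks within 500 kb (11.4 per 100 kb) and 8 of them higher.

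FTH1 spans chr11:61964285-61967634 and had 4 peaks, all counted at a boundary in a gene of 3350 bp. The widest, at 61966813 to 61968557, crossed the upper end of the span with a maximum of 5 and a total of 3177. Peaks at 61966232 to 61966635 and 61965017 to 61965654 reached 4 (total 894) and 2 (total 984). A peak at 61962089 to 61963482, wholly outside, reached 4 (total 3248). Of these peaks, 3 also fall in boundary windows of BEST1 or the lncRNA LOC399900. Around FTH1, 81 peaks were listed within 500 kb (8.07 per 100 kb), 2 of them higher than any of its own. Ferritin genes have many processed pseudogenes to which reads could be assigned. None of 27 FTH1P and none of 20 FTLP pseudogenes in the gene table had a peak on its span, against 4.0% of 15212 pseudogenes. How reads that map to several copies were assigned is not stated in the labels.

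The promoter windows, 250 bases before to 50 after each start, were compared with those of all protein-coding genes. The core of the antioxidant response element was searched as TGACNNNGC on both strands, a pattern that can overlap the AP-1 site TGACTCA. It was found in 3 of the 9 member windows, against 13.8% of 22132. The 9 windows belong to 7 genes, and the 3 with a match are that of GCLM and both of TXNRD1. GCLM had it on the strand opposite the gene: TGACTAAGC there reads GCTTAGTCA on the gene's strand, beginning 34 bp upstream of the start, and no peak was listed. The first start of TXNRD1 had 2 matches and no peak, and its second start had 1, again on the opposite strand. There TGACAAAGC reads GCTTTGTCA on the gene's strand, beginning 102 bp upstream, inside a peak with a maximum of 2. None of the 4 matches held TGACTCA. Of the 7 windows under a peak, 6 had no match, among them those of NQO1, SRXN1 and FTL, which says only that these letters are not in this window.

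Base composition varied among the members. GC content was 80.0% at SRXN1, a level reached by 3.42% of protein-coding promoters, and 62.7% at NQO1 and GCLC, close to the median of 62.3%. GC skew, the excess of G over C on the gene's strand divided by their sum, was positive at SRXN1 (0.17) and at the inner and outer starts of NFE2L2 (0.18 and 0.05), as well as at the second start of TXNRD1 (0.11). It was negative at the 5 others: NQO1 (-0.24), GCLC (-0.20), FTL (-0.19), GCLM (-0.17) and the first start of TXNRD1 (-0.09). Genes with high start peaks thus fell on both sides of the median of 0.02. These windows lie mostly upstream, and the transcribed side, where G-rich stretches are known to favour R-loops, was covered for 50 bases.

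Other genes of the pathway were described from 7 lists with 74 genes, of which 46 (62.2%) had a boundary peak, against 40.1% of all protein-coding genes. A peak over span or flanks was listed for 59 (79.7% against 60.4%) and a boundary peak of 5 or more for 18 (24.3% against 14.5%). The list of NRF2 regulators, which also holds relatives and small MAF partners of NRF2, had the highest share, 11 of 13 (84.6%). NADPH supply was next with 83.3%. In the regulator list, peaks reached 19 at NFE2L1, a relative of NRF2, and 15 at RBX1, the RING subunit of the CUL3 ligase. MAFF, a small MAF partner, reached 7. CUL3 reached 6 and KEAP1 3, while BACH2 and NFE2L3 had no peak. The NFE2L1 peak was shared with COPZ2 and NFE2L1-DT.

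Enzymes of glutathione and thioredoxin use had a boundary peak in 8 of 13 cases. Thioredoxin itself, TXN, reached 7, glutathione synthetase GSS 6 and the peroxiredoxin PRDX6 5, while GLRX, GPX2 and GSTM3 had no peak. The TXN and PRDX6 peaks lay wholly outside their gene spans, that of PRDX6 also touched the lncRNA LOC100506023, and that of GSS also touched MYH7B. For NADPH supply, 5 of 6 genes (83.3%) had a boundary peak, against the same 40.1%. Maxima were 4 at IDH1, the cytosolic isocitrate dehydrogenase, and at PGD, a dehydrogenase of the pentose phosphate pathway. The IDH1 peak was shared with IDH1-AS1, and that of PGD lay wholly outside its span.

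Among enzymes of quinone, carbonyl and xenobiotic metabolism, 7 of 13 (53.8%) had a boundary peak, against the 40.1% of all protein-coding genes. OSGIN1 reached 7, the aldehyde dehydrogenase ALDH3A1 and the carbonyl reductase CBR1 5 each, the latter in a peak shared with CBR1-AS1, and CBR3 and PIR had no peak. Transporters had boundary peaks in 5 of 7 cases (71.4%, against 40.1%), none above 3. ABCC2 and ABCC5 had 3 and ABCC3, in a peak shared with ANKRD40, 2. All 7 genes had a peak over the span or flanks, against 60.4% of all protein-coding genes.

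Haem and iron genes had a boundary peak in 5 of 10 cases, near the 40.1% of all protein-coding genes. The biliverdin reductase BLVRB reached 9 in a peak shared with SPTBN4, the iron-responsive regulator IREB2 8, and the porphyrin transporter ABCB6 5, shared with ATG9A, while BLVRA and the iron exporter SLC40A1 had no peak. Antioxidant enzymes outside these groups had 5 of 12 (41.7%), about the share of all protein-coding genes. GPX4 and GPX1 reached 5 and PRDX5 4, all in peaks shared with neighbours (SBNO2, RHOA, and ESRRA with TRMT112), and CAT, PRDX2 and PRDX4 had none. The GPX4 peak lay wholly outside its gene span.

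**Figure D4:**
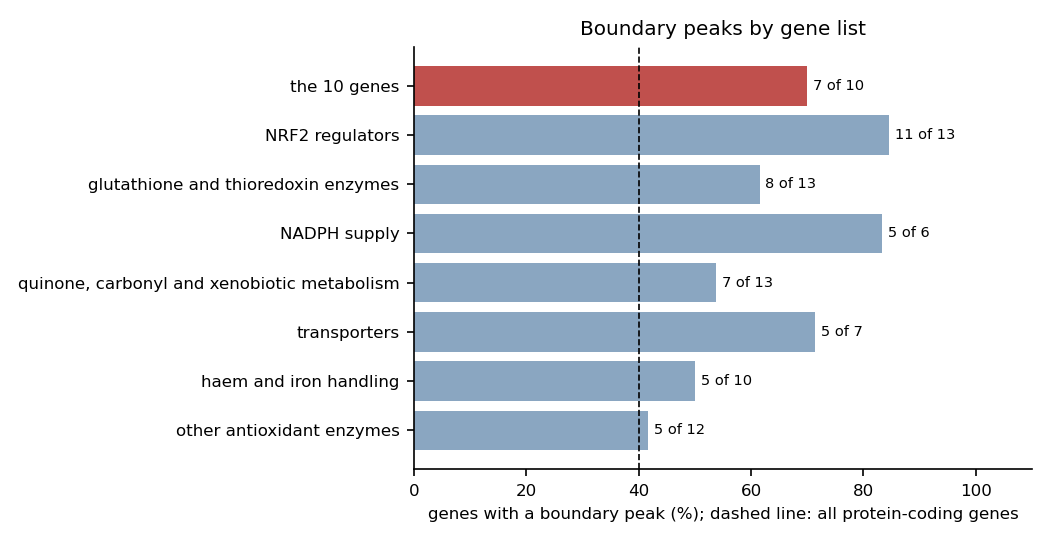
Share of genes with a boundary peak (x axis, %) for the 10 genes (red) and 7 lists of other pathway genes (blue), with counts beside the bars; the dashed line is the 40.1% of all protein-coding genes. The list of NRF2 regulators, which also holds relatives and partners of NRF2, stands at 11 of 13 and other antioxidant enzymes at 5 of 12.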

How the data were processed

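R-loop CUT&Tag of wild-type A549 cells gave 1 deposited S9.6 peak list, read as 1-based positions on GRCh38. Per the submitters' processing notes, the tools were SEACR 1.3, deepTools 3.5.2, Bowtie2 2.4.2, fastp 0.23.2, bedtools 2.30.0 and SAMtools 1.9, with no roles given. The deposited signal values, read as a total and a maximum coverage per peak, are whole numbers with no sign of scaling. The total was at most width times maximum in 47810 of 47810 peaks, which a sum and a maximum meet whether scaled or not. Mapped sequences included 302 names beyond chromosomes 1 to 22, X and Y, among them patches and alternates.

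Gene spans came from RefSeq (GRCh38.p14) and starts from its promoter table. A peak was placed by 1 shared base. Placement was tested on simulated, well-separated genes with at most 1 peak each. Genes as short as FTL or FTH1, as long as TXNRD1, or close to others were not simulated. Python 3.11.15, pandas 2.3.3 and scipy 1.17.1 were used. No differences were tested, since there was 1 library. The members and lists were chosen with earlier results of these data known. Named genes were all members, KEAP1 and CUL3, in each list the 3 whose boundary peak was highest and, alphabetically, the first 3 with none over the span, and genes sharing a member's peak. A gene chosen by this rule is not reported here. Genes sharing the peak of a listed gene were named after the values were seen. Alternatives varied the window, flank, peak height, total signal and placement.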

Additional observations from a re-analysis of the deposited data

How the results depend on the processing

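Of 45 recomputed counts and medians, 42 stayed within 1.5 times the reported count, or within the Poisson interval of the reported median. These limits are wide for small values. The interval around the median of 5 runs from 1.62 to 11.7, and a fall from 9 to 6 members counted as within the limit. The count of members with a boundary peak ran from 5 (maximum coverage 5 or more) to 9 (windows of 2000 bp), with 7 reported. The count with a peak over span and flanks ran from 6 to 10, and that at a start from 4 to 7 of 7. Restricting the list to peaks of maximum coverage 5 or more moved 3 counts: 2889 protein-coding genes had a boundary peak (8001 reported), 3557 a peak over span and flanks (12065 reported) and 18 of the 74 other pathway genes a boundary peak (46 reported). Fewer peaks entered by construction. The alternatives for the 74 genes were chosen after seeing the data. Single genes moved more, in 19 of 70 recomputed peak counts: TXNRD1 kept 3 of 23 peaks at a maximum of 5 or more, SLC7A11 lost its only peak when peaks of lower than median total signal were left out, and FTL kept 1 of 3 without flanks. No paired analysis was possible because there was 1 library, and no replicate could be left out. Depth limits all of this: most peaks rest on 2 or 3 stacked fragments.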
